A study of Mus musculus with 4 samples.

Results

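OTX2 binding was examined at 8 genes of the epithelial-mesenchymal transition (EMT), Cdh1, Cdh2, Snai1, Snai2, Zeb1, Zeb2, Vim and Twist1, in mouse cells on the way to definitive endoderm. Regions belonged to a gene when their midpoint lay inside its span (in the shortest gene if several held it) or, outside all spans, when its end was the nearest protein-coding gene end within 100 kb. By this rule 39 of the 39615 deposited regions fell to the 8 genes. At least 1 region of any list lay at 7 of the 8, against 54.7% of all protein-coding genes. That share is not matched for the length of genome that falls to a gene.

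OTX2, a homeodomain transcription factor, was mapped by CUT&RUN, in which an antibody directs a nuclease to chromatin and the released DNA is sequenced. The 4 primitive streak (PS) libraries are 3 with anti-HA antibody, from the lines named 7H, 7H1 and 7H2 OTX2-dTAG-EGFP, and 1 with control IgG, from 7H2, each from 500000 cells of BL6/129 hybrid background. Cells started as EpiSCs, kept with Activin A (20 ng/ml), FGF2 (12.5 ng/ml) and NVP (175 nM). To reach PS, they spent 16 h with Activin A (40 ng/ml) and the WNT activator CHIR (3 uM). Definitive endoderm (DE) cells, which were sorted live, then had another 24 h with Activin A (100 ng/ml) and the BMP inhibitor LDN (100 nM). All 4 libraries, IgG included, come from lines whose names carry the tag. The labels do not say whether the 3 lines arose independently, and no untagged cells are among them.

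The values are 4 lists of mm10 regions, named for a stage written EPI together with PS (379 regions), PS only (1634), PS and DE (6157) and DE only (31445). Each name says that its regions were found only in the stages it names. No list holds regions common to EPI, PS and DE, regions of EPI alone or regions of EPI and DE. A gene without a region in these lists may therefore still hold regions of those kinds. They carry no height and no value per library, so depth and replicate spread are unknown, anti-HA could not be set against IgG, and the cell stages could not be checked against marker genes. No EpiSC or DE library is among the 4 described, although lists named for EPI or DE need regions called at those stages. Antibody, line and replicates of the libraries behind those calls are not known here. Differences between stages therefore cannot be told apart from differences between libraries. A region in a list says that the authors placed it there, not how strongly it was bound, and list lengths move with depth and peak calling. Since no value per library was used, no test was run, and all that follows is description.

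In EMT, cells give up the adhesion of an epithelium and become motile. In the mouse embryo it takes place at the primitive streak. There many epiblast cells lose E-cadherin, the product of Cdh1, and gain N-cadherin, the product of Cdh2. The zinc finger repressor encoded by Snai1 is needed for that loss. No expression values were used here, so whether the cells studied lost E-cadherin is not known. The endoderm that forms later is an epithelium. Snai2, Zeb1 and Zeb2 encode further zinc finger repressors of Cdh1, Twist1 encodes a basic helix-loop-helix factor, and Vim encodes vimentin, the intermediate filament of mesenchymal cells.

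The sequence shown first is the stretch before the start site of Snai1, because it was the one member promoter whose tabulated window held a deposited region. It is RefSeq sequence of GRCm38.p6 (the assembly of mm10), chr2:167537945-167538194, plus strand, 250 bases up to the base before the start site. Capitals mark the 129 bases of the DE only region at 167538065 to 167538193.

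Snai1: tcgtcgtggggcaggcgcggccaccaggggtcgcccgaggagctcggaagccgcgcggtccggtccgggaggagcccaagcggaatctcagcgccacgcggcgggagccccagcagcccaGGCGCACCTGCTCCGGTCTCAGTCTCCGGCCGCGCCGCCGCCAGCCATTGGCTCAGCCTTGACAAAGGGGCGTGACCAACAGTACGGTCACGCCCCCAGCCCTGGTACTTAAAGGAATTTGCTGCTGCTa

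The region ended 2 bp before the first transcribed base. Both strands of this window and its 50 following bases were searched for TAATCC, the core recognised by OTX2 and related homeodomains, and gave no match. The letters occur in 7.06% of the 32851 promoter windows of the same 300 bases in the table. The E-box CACCTG, known as a site for SNAIL and ZEB repressors, was found once, on the plus strand, starting 126 bp before the start site and inside the capitals, and 20.2% of windows hold it on either strand. These are matches of letters only, and a missing match says no more than that these letters are not in this window.

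The 39 regions fell into 2 of the 4 lists. The PS and DE list gave 13 and the DE only list 26, while EPI and PS and PS only gave 0 each. Regions were expected from the length of genome that the rule gives each gene, its territory, at the mean rate of a list over all 21887 protein-coding genes. At that rate the 8 genes would have held 4.13 PS and DE regions and 21.1 DE only regions, so the counts were 3.14 and 1.23 times these. For EPI and PS and PS only the same rate gives 0.257 and 1.10 regions, so few were to be found there at the mean rate. At least 1 PS and DE region lay at 4 of the 8 genes, against 16.3% of all protein-coding genes, and at least 1 DE only region at 6 of the 8, against 50.1%. The corresponding shares of all genes were 1.45% for EPI and PS and 5.60% for PS only. Shares of all protein-coding genes, here and below, are not matched for territory, and a longer territory has more room for a region. The median was 2 regions for the 8 genes over the 4 lists and 1 for all genes.

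PS and DE regions made up 33.3% of the 39 (95% Wilson interval 20.6 to 49.0) and 15.6% of the 34616 regions assigned to any protein-coding gene (15.2 to 15.9). The intervals cover counting error only and treat regions as independent, which regions of 1 gene are not. Cdh2 alone gave 6 of the 13, and Cdh1 and Zeb2 gave 3 each.

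**Figure D1:**
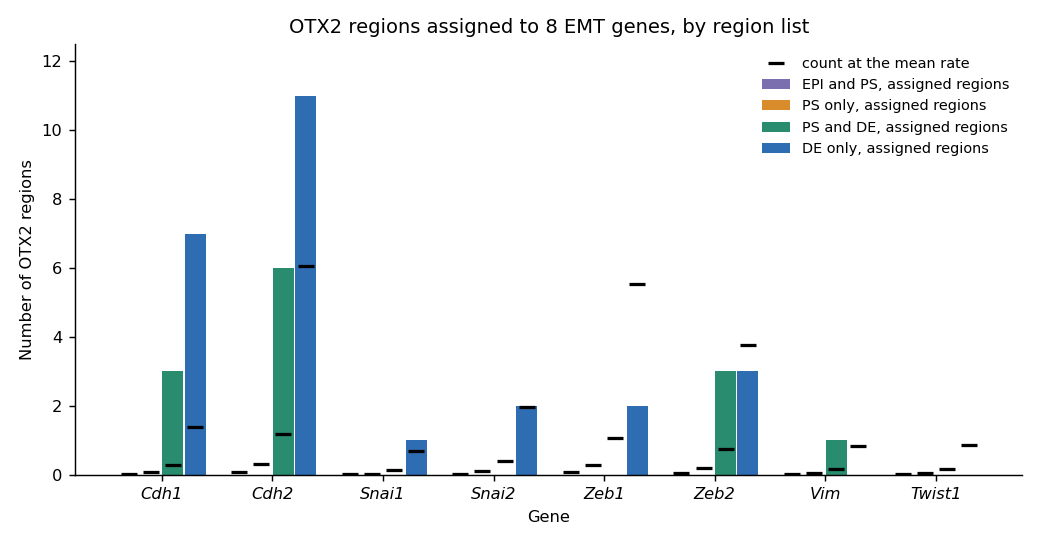
Number of assigned OTX2 regions (y axis) at each of the 8 genes (x axis), with a bar per region list and a black dash at the count that the mean rate of the list gives for the gene's territory. Cdh1 and Cdh2 carry the tallest bars, with 7 and 11 DE only regions, no gene has a bar for EPI and PS or for PS only, and Twist1 has none.

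The 2 cadherin genes held 27 of the 39 regions. Cdh2 held 17, of which 6 were PS and DE and 11 DE only, and Cdh1 held 10, of which 3 were PS and DE and 7 DE only. Counts of 10 or more were found for 2.28% of all protein-coding genes. The genes differ in territory, 420 kb for Cdh2 and 96.5 kb for Cdh1. Set against the mean rate over the 4 lists together, Cdh1 had 5.71 times and Cdh2 2.23 times the count its territory gives. Of the 2928 other genes with a territory within 25% of that of Cdh1, 22 (0.751%) held at least 10 regions and the median was 1. Of the 538 such genes for Cdh2, 24 (4.46%) held at least 17 and the median was 6. The count of Cdh1 was thus further from that of genes of like territory, although Cdh2 had more regions.

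At Cdh1 (chromosome 8, 106603350 to 106670247), which encodes the adhesion molecule of the epiblast epithelium, regions lay on both sides of the lower-coordinate end, 4 before it and 6 inside the span. The gene table gives no strand, but Cdh1 is known to be transcribed toward higher coordinates, so that this end is its start. Before it, DE only regions lay 22.6 kb (106580643 to 106580734) and 14.3 kb (106588843 to 106589072) outside the span. A DE only region at 106603238 to 106603342 stopped 8 bp short of the span. Another, at 106604077 to 106604213, had its midpoint 0.795 kb inside it. Farther in lay a PS and DE region at 106619752 to 106619808 and, 945 bp from it, a DE only region at 106620754 to 106620913, followed by another DE only region at 106621607 to 106621852, the widest of the gene at 246 bp. These 3 regions of 2 lists stood within 18.4 kb of the gene end by their midpoints. A PS and DE region of 129 bp lay at 106635822 to 106635950 and a DE only region at 106654406 to 106654597. Within 50 kb, 8 of the 10 regions stood together, from 106580643 to 106621852, a stretch of 41.2 kb.

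The third PS and DE region of Cdh1, with its midpoint 3.64 kb outside the span, is only 8 bp wide (106599708 to 106599715). Widths under 50 bp occur in the 2 lists of shared regions alone, in 14 EPI and PS and 186 PS and DE regions, so this count of 3 depends on how shared regions were defined. With regions of at least 50 bp, Cdh1 had 2 PS and DE regions. With regions of at least 150 bp, Cdh1 had 0 PS and DE and 4 DE only regions, Cdh2 had 3 and 3, Zeb2 had 3 and 0, Zeb1 had 0 and 1, and the Snail genes and Vim had none, so the counts at single genes depend on the width required.

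Cdh1 has a close neighbour of the same family. Cdh3, which encodes P-cadherin, ends 46.4 kb before Cdh1 and held 7 further regions, 1 PS and DE and 6 DE only. The pair thus held 17 regions over 147 kb, from 106507839 to 106654597. A further 3 DE only regions within 100 kb of the Cdh1 span were taken by Tango6.

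Cdh2 (chromosome 18, 16588877 to 16809246) encodes N-cadherin, which cells leaving the streak gain. Of its 17 regions, 13 lay inside the span, among them all 6 PS and DE regions. The densest part was a stretch of 42.3 kb deep inside the gene, from 16701633 to 16743939, with 9 regions, 4 of PS and DE and 5 of DE only. Inside it 793 bp separated the end of a DE only region (16708276) from the start of a PS and DE region (16709070). The widest member region of all, 284 bp, was the PS and DE region at 16614713 to 16614996. At the higher-coordinate end, which is known to be the start of the gene, 1 DE only region lay 0.535 kb outside the span (16809781 to 16809861). A further 3 DE only regions lay beyond, the farthest at 90.2 kb. No PS and DE region lay on that outer side.

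By the 4 counts, the genes most like Cdh2 were Bbs9, with the same 4 counts, Ksr2, with 5 PS and DE and 11 DE only regions, and Sema3a, with 6 and 10. The measure is the summed difference of counts over the 4 lists, which was 0 for Bbs9 and 1 for each of the others. Their territories were 516 kb for Bbs9, 416 kb for Ksr2 and 661 kb for Sema3a.

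**Figure D2:**
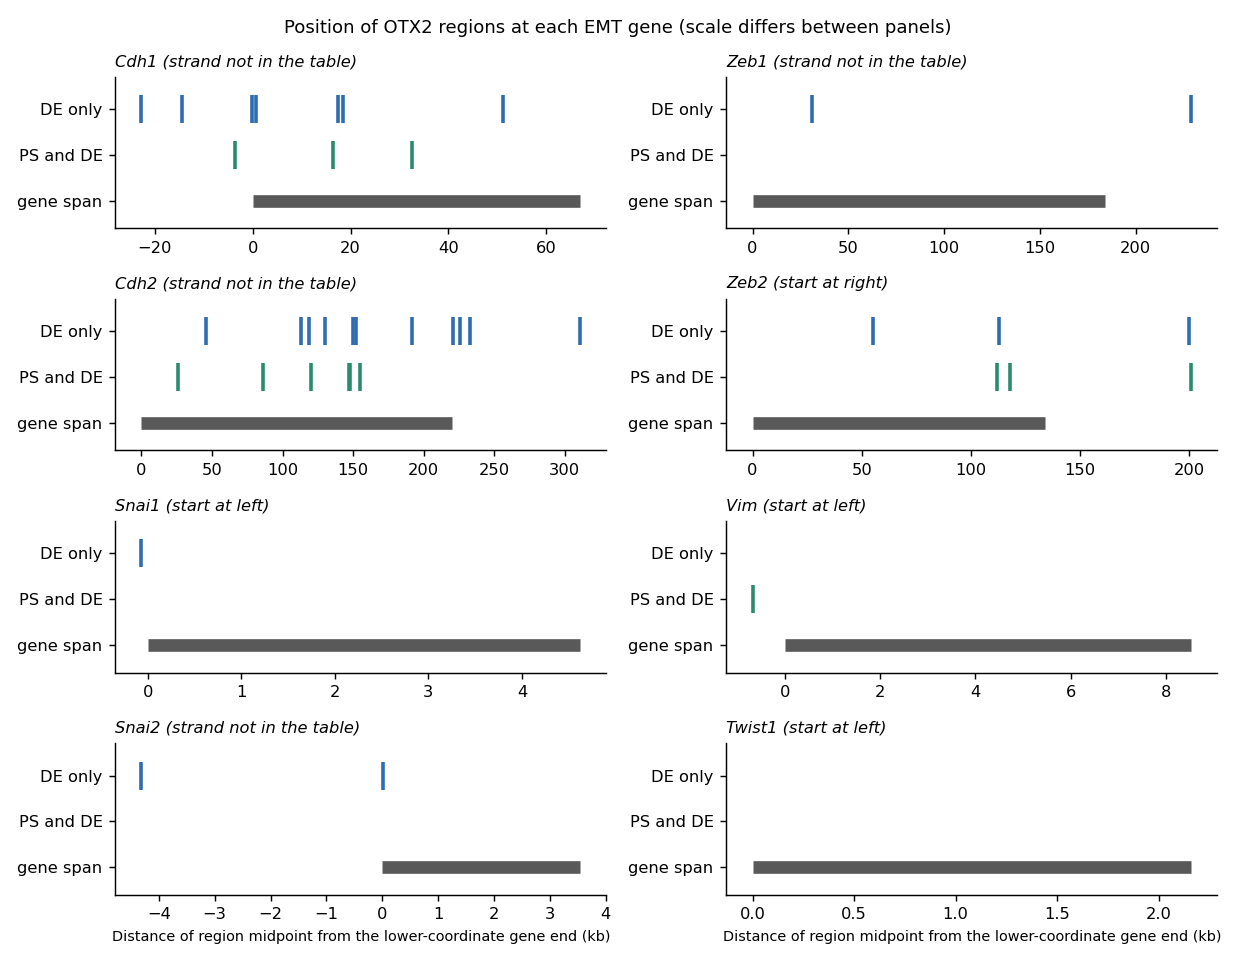
Midpoints of the assigned regions as ticks, by distance in kb from the lower-coordinate end of each gene (x axis, scale differing between panels), in rows for DE only, PS and DE and the gene span (grey bar). At Cdh1, Snai1, Snai2 and Vim a tick lies within 1 kb of the left end of the bar, at Cdh2 ticks of both lists stand close together in the right part of the bar, and Twist1 has no tick.

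The 2 Snail genes had DE only regions alone, and each had 1 at an end of the gene. Snai1 (chromosome 2, 167538195 to 167542814) had 1 region, the one printed above, against 0.691 DE only regions at the mean rate. A window from 250 bases before to 50 after the start site was tabulated for 4 of the 8 genes, and 1 of these 4 overlapped a DE only region, against 15.9% of the 17492 protein-coding genes in that table. Snai2 (chromosome 16, 14705852 to 14709395) had 2 DE only regions, against 1.98 at the mean rate. One, at 14705812 to 14705923, crossed the lower-coordinate end of the gene, which is known to be its start, and the other, at 14701473 to 14701602, lay 4.25 kb outside. Both counts were thus near those that the territories give.

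Around Snai1 more regions were present than the rule gives it. Within 100 kb of its span lay 7 regions, of which 6 were nearer to or inside another gene. Ube2v1 took 1 PS only and 4 DE only regions and Rnf114 took 1 DE only region. The PS only region, at 167587274 to 167587378 and 44.5 kb from Snai1, was the one PS only region within 100 kb of any of the 8 genes. No EPI and PS region lay within 100 kb of any of them. At Snai2 the 2 assigned regions were also the only ones within 100 kb.

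The 2 ZEB genes, which are paralogs, had different counts. Zeb2 (chromosome 2, 44983512 to 45117442) had 3 PS and DE and 3 DE only regions, against 0.738 and 3.77 at the mean rates. Zeb1 (chromosome 18, 5591327 to 5775468) had 0 PS and DE and 2 DE only regions, against 1.08 and 5.53. In all, Zeb2 had 6 regions on a territory of 262 kb and Zeb1 had 2 on 384 kb. Among genes with territories within 25% of their own, at least as many regions were held by 27.1% of 1496 genes for Zeb2 and by 85.7% of 617 genes for Zeb1. With assignment within 1 Mb, Zeb2 had 5 PS and DE regions and Zeb1 had 4 DE only regions. The difference between the paralogs was not tested.

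At Zeb2, which is read from the higher-coordinate end, 2 PS and DE regions lay inside the gene, 8.34 and 15.1 kb downstream of the nearest tabulated start site (45101764 to 45101936 and 45095046 to 45095215). A DE only region lay between them at 45096753 to 45096856. A second group stood 66.1 to 66.9 kb upstream of the gene, a DE only region at 45183559 to 45183634 and a PS and DE region at 45184388 to 45184544, with 753 bp between them. None of the 4 tabulated promoter windows of Zeb2 held a region, and none held TAATCC or CACCTG. At Zeb1 the 2 DE only regions were isolated, 1 inside the gene (5622210 to 5622288) and 1 outside, 44.3 kb from the higher-coordinate end (5819759 to 5819936). The nearest PS and DE region to Zeb1 lay 249 kb away and was nearest to Zfp438, beyond the 100 kb limit of the gene itself.

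Vim (chromosome 2, 13574311 to 13582826) was the one member with a PS and DE region and no DE only region. That region, at 13573584 to 13573695, lay 0.616 kb upstream of the start site and 366 bp outside the tabulated promoter window, in which neither motif was found. Within 100 kb of Vim lay 5 more regions, of which Trdmt1 took 1 PS and DE and 3 DE only and Cubn took 1 DE only. Twist1 (chromosome 12, 33957671 to 33959831) had no region in any list, where 1.09 were expected over the 4 lists together. None lay within 100 kb of it under any assignment. The nearest was a PS and DE region 144 kb away, inside Hdac9.

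**Figure D3:**
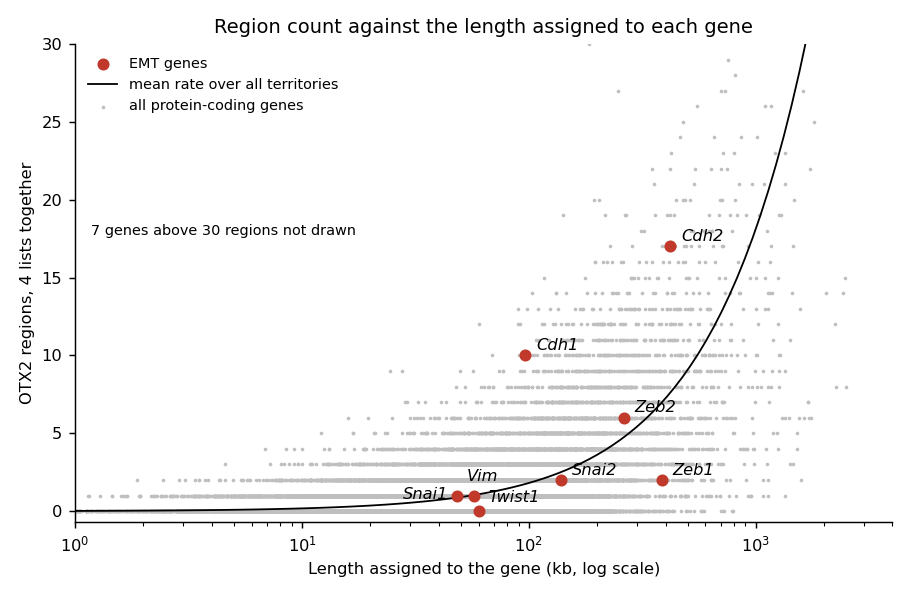
Regions of the 4 lists together (y axis) against the length the rule assigns to each gene (x axis, log scale), with EMT genes as red points, the mean rate as a line and all protein-coding genes as grey points. Cdh1 and Cdh2 lie above the line, Zeb1 with its 2 regions below it, and 7 genes with more than 30 regions are outside the axis.

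Regions close to a gene end were present at some members and not at others. A DE only region with its midpoint within 1 kb of a gene end was present at 4 of the 8 genes, Cdh1, Cdh2, Snai1 and Snai2, against 18.2% of all protein-coding genes. For PS and DE this held for Vim alone, against 2.76% of all genes. Over the 4 lists together it held for 5 of the 8 genes, against 21.0%. These shares by gene are not matched for the number of regions a gene has. By region, 5 of the 26 DE only regions (19.2%) and 1 of the 13 PS and DE regions (7.69%) were that close, and over all protein-coding genes the shares were 15.9% and 11.7%. For the 4 lists together the shares by region were near each other, 15.4% at the 8 genes and 14.9% over all genes. Midpoints inside a gene span were found for 10 of the 13 PS and DE regions (76.9%) and 15 of the 26 DE only regions (57.7%), and over all genes for 53.0% and 54.4%. All 10 of these PS and DE regions lay in Cdh1, Cdh2 and Zeb2, which have long spans. Median widths were 129 bp for the PS and DE and 117 bp for the DE only regions of the 8 genes, beside 121 and 118 bp over all genes.

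Cdh1, Cdh2 and Zeb2 had regions of both the PS and DE and the DE only list, 3 of the 8 genes, against 13.0% of all protein-coding genes. All 13 PS and DE regions had a DE only region within 50 kb, as did 85.9% of the 5383 PS and DE regions of all genes. Of the 26 DE only regions, 16 (61.5%) had a PS and DE region within 50 kb, as did 34.9% of the 27471 of all genes. These 16 lay at Cdh1, Cdh2 and Zeb2 alone. At Snai1, Snai2 and Zeb1 the nearest PS and DE region lay 107, 218 and 249 kb from the gene span. The annotation gave gene spans alone, so exon, intron and UTR positions were not assigned.

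Other genes of the transition were taken from 5 lists. In each of these DE only regions were the most numerous and PS and DE regions came next. That is also the order over all protein-coding genes, with 27471 DE only, 5383 PS and DE, 1427 PS only and 335 EPI and PS regions. The epithelial adhesion and junction list of 23 genes held 92 regions, 77 of them DE only and 13 PS and DE, at 21 of the genes. Of all protein-coding genes, 54.7% held at least 1 region of any list. Pard3, a polarity scaffold, held 20, and Tjp1, which encodes the tight junction protein ZO-1, held 10. Pard6b, a partner of PARD3, held 7, as did Cdh3. The count was 2.09 times that of the mean rate, beside 1.47 times for the 8 genes. For the 10 regulators of the epithelial state it was 2.07 times, with 36 regions at 8 genes, of which Grhl2, an activator of Cdh1 in epithelia, held 14, including 3 of PS only. Klf4 and Klf5, Krüppel-like factors, held 5 each and Grhl3 held 4, of which 3 were PS and DE.

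All 11 other EMT transcription factors held a region, 60 together (2.0 times), with 12 each at Sox9 and at the streak homeobox gene Gsc, 10 at Msx1 and 9 at Tcf4. The 20 mesenchymal genes held 58 regions at 15 genes (1.42 times), with 10 at Pdgfra, a growth factor receptor gene, 8 at Tnc and 7 at Cdh11, and with 6 at Sparc, a matrix protein gene. The 23 signals and effectors of EMT at gastrulation held 73 regions at 18 genes (2.01 times), with 11 at Map4k4, a kinase gene, 9 at Eomes, a T-box factor gene of the streak, 7 at Smad2 and 6 at Fgfr1. The median per gene was 2 to 3 regions in these lists. PS and DE regions were 13 of 92 for adhesion and junction genes, 8 of 36 for epithelial regulators and 12 of 60 for other EMT factors. They were 10 of 58 for mesenchymal genes and 21 of 73 for the gastrulation list, beside 13 of 39 for the 8 genes. The 5 lists, each with more genes than the 8, held between 1 and 4 PS only regions each. The 8 genes held 0, against 1.10 at the mean rate, and most genes of any kind have none. The PS only count at the mean rate was not computed for the 5 lists. With every annotated gene able to take a region, noncoding genes included, 7 counts of the 5 lists were lower by more than 1.5 times. For DE only these were 10 in place of 24 for the epithelial regulators, 26 in place of 46 for the mesenchymal genes and 28 in place of 46 for the gastrulation list. For PS and DE they were 5 in place of 8 for the epithelial regulators, 4 in place of 12 for the other EMT factors and 9 in place of 21 for the gastrulation list, and for PS only 1 in place of 4 for the other EMT factors. No difference between lists was tested.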

How the data were processed

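CUT&RUN libraries were processed by the authors on mm10 with tools that include MACS2 2.2.6, bedtools 2.30, Picard 2.26.10, SAMtools 1.14 and Bowtie2 2.3.5.1, per the submitters' processing notes, which give neither order nor settings. The deposited lists hold chromosome, start and end without a header. How peaks were thresholded, IgG used and replicates combined is not stated there. The 3 anti-HA libraries and 1 IgG library have no values of their own, so replicate error and depth are unknown and no test was run.

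Starts were converted to count from 1. Genes came from RefSeq (GRCm38.p6), with 21887 protein-coding genes on chromosomes, and promoters from RefSeq for 4 of the 8 genes. All 95 symbols matched, and 2 regions on an unplaced scaffold could not be assigned. Territories were computed exactly from the assignment rule, in Python 3.11.15 with NumPy 2.4.6, SciPy 1.17.1 and Matplotlib 3.10.9. Tested at 2000 random positions against a direct search, the assignment gave 0 mismatches. The members, lists and named genes (all 8 members, up to 4 genes per list with the most regions, and the 3 genes most like the member with the most) were chosen with earlier results of these data known. The CACCTG search and the genes named as taking neighbouring regions were chosen after the values were seen. Counts were repeated under 8 other settings.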

Additional observations from a re-analysis of the deposited data

How the results depend on the processing

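The lists hold no value per library, so leaving out a replicate could not be tried. No paired analysis was possible because no result comes from a test. Counts at the 8 genes stayed within 1.5 times with assignment within 50 kb, with the nearest gene end in place of the span, with any base in place of the midpoint, with regions merged within 500 bp, with all annotated genes and, in an alternative chosen after seeing the data, with regions of at least 50 bp. Within 1 Mb, PS only gave 1 region at 1 gene, Zeb2, in place of 0. With regions of at least 150 bp, PS and DE gave 6 regions at 2 genes and DE only gave 8 regions at 3 genes. That width keeps 46.2% of the PS and DE and 30.8% of the DE only regions of the 8 genes, beside 34.2% and 32.9% of those of all genes. In the other EMT gene lists, the same width left 36 of 77 DE only regions for adhesion and junction genes, 8 of 24 for epithelial regulators, 13 of 44 for other EMT factors, 17 of 46 for mesenchymal genes and 22 of 46 for the gastrulation list, and PS only fell to 0 in 3 of the 5 lists. With all annotated genes, 7 counts of these lists were lower by more than 1.5 times. Depth per library is unknown, and a region missing from a list may have missed the authors' threshold.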
